A study of Homo sapiens with 6 samples.

Results

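The interferon system of A2780, a doxorubicin-sensitive human cell line from an ovarian carcinoma, was compared with that of A2780-ADR cells, its adriamycin (doxorubicin)-resistant derivative with multidrug resistance (MDR). A list of 53 genes was taken out of the 58051 Ensembl genes in the deposited table: 7 receptor chains and Janus kinases (receptor and JAK tier), 9 STAT and interferon regulatory factor genes (STAT and IRF tier), 3 cytosolic RNA sensors and 34 induced effectors. The genes were chosen by name, with earlier results of these data known, and all 53 had a row. Polyadenylated RNA of 3 A2780 samples and 3 A2780-ADR samples was sequenced. The labels name no interferon or other agent for either line, and both lines grew in the same serum-containing medium. The paper's methods do not say whether A2780-ADR was kept in doxorubicin. A2780-ADR is a single derived line, so a difference that came with resistance cannot be told apart from any other difference between the lines. The samples are called independent in the series record, but no source used here says that they came from separate cultures, so the p-values rest on a spread between samples that may be technical.

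Interferons are secreted cytokines that warn cells of viruses and activate immune recognition. Type I interferons bind IFNAR1 and IFNAR2 and signal through JAK1 and TYK2, whereas interferon gamma binds IFNGR1 and IFNGR2 and signals through JAK1 and JAK2. The kinases phosphorylate STAT proteins, which bind DNA either with IRF9 at the interferon-stimulated response element (ISRE) or as dimers at the gamma-activated sequence (GAS), and IRF1 binds elements that resemble the ISRE. The genes so induced encode RNA sensors, proteins that block viral RNA or particles, the ubiquitin-like modifier ISG15 with its enzymes, guanylate-binding GTPases and the machinery of antigen presentation.

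The libraries held 27775745 to 30513366 reads in genes. The drug efflux gene ABCB1, a check of the line labels, was at 0 to 2.04 normalized counts in A2780 and at 26769 to 29512 in A2780-ADR. Markers of blood cells were low in both lines: the 10 markers summed to 94.6 to 102 normalized counts in A2780 and 69.3 to 79.0 in A2780-ADR, and CD3E, CD2 and HBB were at 0 in all samples. The ovarian and epithelial markers summed to 294 to 326 in A2780 and 12361 to 13799 in A2780-ADR, of which KRT8 and KRT18 made up most, while PAX8, WT1, MUC16 and CDH1 did not exceed 22.1 in any sample and KRT7 was at 0. The samples are bulk RNA, so fewer expressing cells and less RNA per cell cannot be told apart in any of the results.

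Promoter windows of these genes were searched for the DNA elements of the interferon response. RefSeq windows from 250 bases before to 50 bases after the transcription start (GRCh38.p14) were matched to 41 of the 53 genes and searched on both strands for the ISRE core GAAANNGAA (reverse TTCNNTTTC) and the GAS core TTCNNNGAA, which reads the same on both strands and can overlap an ISRE match. The ISRE core was present in 19 of the 41 windows (46.3%), against 8.11% of 35093 windows of all genes, and the GAS core in 7 of 41 (17.1%), against 7.66% of all. By tier, the ISRE core was present in 18 of 27 effectors and 1 of 2 sensors, and in 0 of 6 receptor and JAK genes and 0 of 6 STAT and IRF genes. Only the first window listed for a gene was used, so a gene without a match may hold the element elsewhere. For example, the windows of PARP9 (chr3:122564735-122565034) and JAK1 (chr1:65067697-65067996) lay outside the gene positions given below. The windows of IFIT1 (chr10:89392373-89392672, plus strand) and IFIT3 (chr10:89327747-89328046, plus strand) are shown because these neighbouring genes differed between the lines in opposite directions. Capitals mark the ISRE core, with a further A (T on the other strand) where one follows it.
IFIT1: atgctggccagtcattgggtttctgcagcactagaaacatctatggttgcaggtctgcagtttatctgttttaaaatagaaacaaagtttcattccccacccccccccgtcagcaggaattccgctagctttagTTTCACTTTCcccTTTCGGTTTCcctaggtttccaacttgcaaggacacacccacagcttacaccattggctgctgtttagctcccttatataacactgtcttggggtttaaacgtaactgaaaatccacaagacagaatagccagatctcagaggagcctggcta
IFIT3: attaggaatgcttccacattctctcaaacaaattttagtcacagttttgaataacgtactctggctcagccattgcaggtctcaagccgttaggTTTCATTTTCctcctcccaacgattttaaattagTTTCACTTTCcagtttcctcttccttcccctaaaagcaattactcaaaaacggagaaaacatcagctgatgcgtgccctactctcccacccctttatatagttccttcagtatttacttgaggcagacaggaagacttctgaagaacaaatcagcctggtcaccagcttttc
Each window held 2 matches, all on the minus strand, starting 115 and 102 bases before the start of IFIT1 and 155 and 121 bases before that of IFIT3.

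Shorter stretches, with up to 20 bases on each side of the matches, are given for the other called genes with an ISRE core. GBP1 (chr1:89065159-89065354, minus strand), IFI27 (chr14:94110609-94110669, plus strand), MX1 (chr21:41420549-41420603, plus strand) and DTX3L (chr3:122564312-122564360, plus strand) fell in A2780-ADR cells, and HERC5 (chr4:88456975-88457074, plus strand) and ISG20 (chr15:88638927-88638975, plus strand) rose.
GBP1: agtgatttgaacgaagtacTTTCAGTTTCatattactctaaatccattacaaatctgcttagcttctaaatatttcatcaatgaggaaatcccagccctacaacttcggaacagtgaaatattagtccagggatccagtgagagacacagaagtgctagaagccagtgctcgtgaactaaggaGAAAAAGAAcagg
IFI27: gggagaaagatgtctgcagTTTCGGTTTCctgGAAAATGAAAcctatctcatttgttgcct
MX1: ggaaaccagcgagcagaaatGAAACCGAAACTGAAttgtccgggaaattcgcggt
DTX3L: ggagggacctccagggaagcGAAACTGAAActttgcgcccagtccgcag
HERC5: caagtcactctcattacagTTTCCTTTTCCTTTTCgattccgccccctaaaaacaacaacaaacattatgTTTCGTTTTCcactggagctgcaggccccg
ISG20: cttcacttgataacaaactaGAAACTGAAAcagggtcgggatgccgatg
In all, the ISRE core was present in 5 of 10 windows of genes that fell, 2 of 7 of genes that rose and 9 of 17 of genes that were not called. Windows with a match were thus found in each class. The GAS core was present in 3 of 10 windows of genes that fell (IRF1, IRF9 and IFI27) and in 0 of 7 of genes that rose and 3 of 17 of genes that were not called. The GAS matches of IRF1 (chr5:132490869-132490917, minus strand) and IRF9 (chr14:24161182-24161230, plus strand) are shown in capitals because both regulators fell.
IRF1: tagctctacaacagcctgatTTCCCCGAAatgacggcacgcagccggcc
IRF9: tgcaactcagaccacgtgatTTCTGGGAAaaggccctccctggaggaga
A match describes the letters of the window and does not show binding, and a window without a match does not show that the gene lacks the element.

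Of the 53 genes, 43 averaged at least 10 normalized counts across all 6 samples and were tested with limma among 17005 genes, on log2(normalized count + 1). Calls required a more than 2-fold change with an adjusted p (Benjamini-Hochberg) below 0.05, and a positive log2 fold change means a higher value in A2780-ADR. Gene positions below are those of GENCODE 29 on GRCh38. In A2780-ADR cells 7 genes rose and 11 fell, together 41.9% of those tested, against 27.6% of all tested genes (13.2% higher and 14.4% lower). A further 21 passed the adjusted p alone, which 71.8% of all tested genes passed, and IRF7, OAS2, ISG15 and SP110 did not pass it. The values of the lines did not overlap for 40 of the 43 genes, against 74.6% of all tested genes, and the median change was -0.14, against -0.007 for all. By tier, 3 of 7 receptor and JAK genes rose and 0 fell, 2 of 6 tested STAT and IRF genes fell and 0 rose, 0 of 3 sensors were called, and 4 of 27 tested effectors rose while 9 fell. GBP1, XAF1, MX1 and IFI27 passed the filter on low values only through A2780, and CMPK2 only through A2780-ADR. These genes had to differ, so the share called is a description only.

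**Figure D1:**
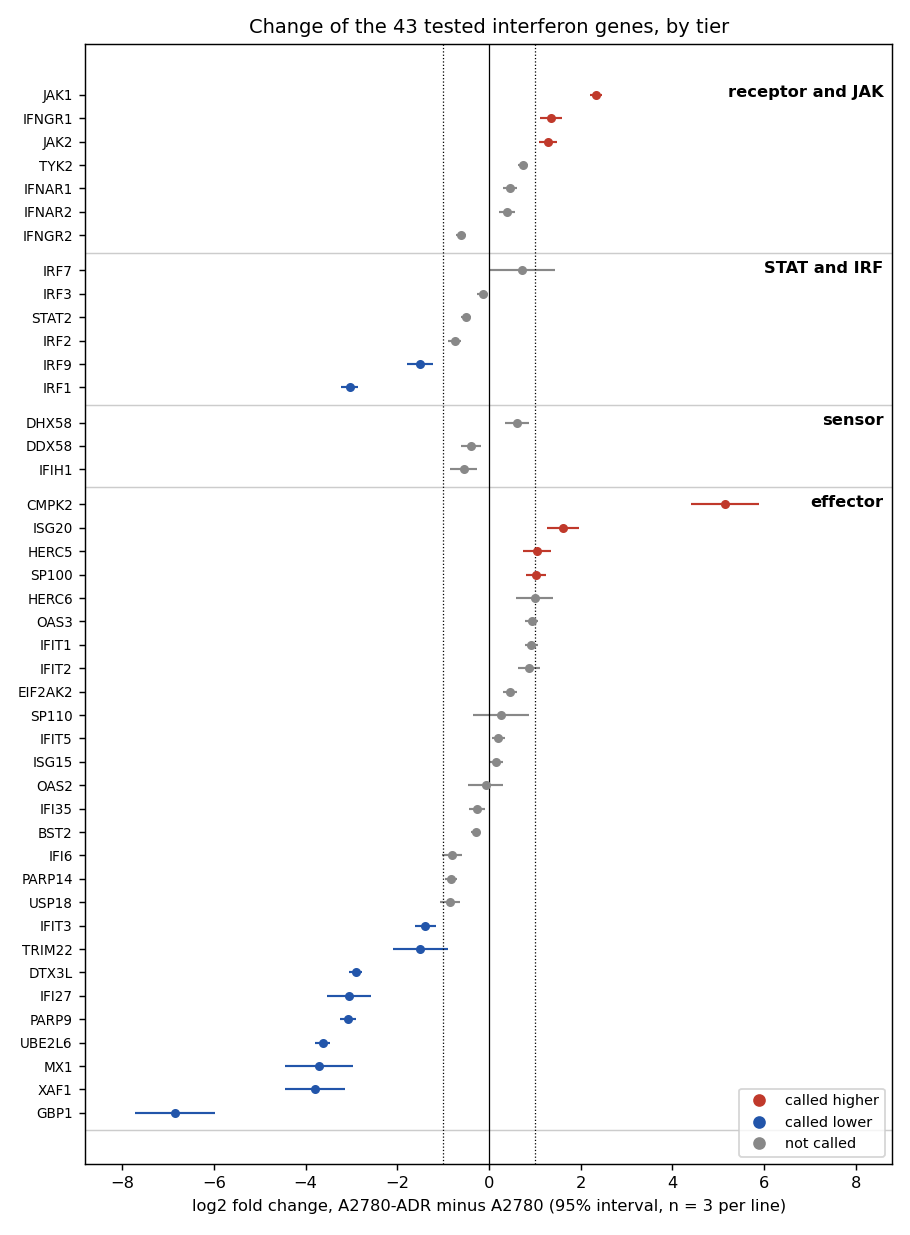
Log2 fold change of each of the 43 tested genes, A2780-ADR minus A2780, by tier, with points for the estimate and bars for its 95% interval (n = 3 per line) and dotted lines at a 2-fold change. The 3 called receptor and JAK genes lie to the right, the 2 called STAT and IRF genes to the left, and the effectors range from 5.15 for CMPK2 to -6.84 for GBP1.

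Receptor chains and Janus kinases were expressed in both lines, and 6 of the 7 had a positive change. JAK1 (ENSG00000162434, chr1:64833229-64966504, minus strand), the kinase shared by the receptors of type I interferon and interferon gamma, had 484, 513 and 536 normalized counts in A2780 and 2569, 2506 and 2689.9 in A2780-ADR. All A2780-ADR values lay far above all A2780 values, and the log2 fold change was 2.34 (SE 0.06, adjusted p = 1.12e-11 from limma). JAK2 (ENSG00000096968, chr9:4984390-5128183, plus strand), the partner of JAK1 on the interferon gamma receptor, had 176, 185 and 187 in A2780 and 438, 417 and 488 in A2780-ADR, which do not overlap (log2 fold change 1.29, SE 0.09, adjusted p = 1.05e-07 from limma). IFNGR1 (ENSG00000027697, chr6:137197484-137219449, minus strand), the ligand-binding chain of that receptor, had 189, 179 and 157 against 409.5, 432 and 508 (log2 fold change 1.35, SE 0.11, adjusted p = 3.25e-07 from limma). The other chain, IFNGR2, which brings JAK2 to the complex, was on the opposite side, with 1901, 1933 and 1881 in A2780 and 1189.9, 1278 and 1275 in A2780-ADR. Its log2 fold change of -0.61 passed the adjusted p of limma (4.91e-07) but not the 2-fold threshold, so the chains of a single receptor differed in direction.

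The type I receptor differed less. IFNAR1 had 885, 968 and 1037 normalized counts in A2780 and 1273, 1280.3 and 1417 in A2780-ADR. IFNAR2 had 327, 368 and 339.9 against 435, 441 and 485. For both chains every A2780-ADR value was above every A2780 value, and the log2 fold changes of 0.46 (95% interval 0.30 to 0.61) and 0.40 (0.21 to 0.58) stayed under the threshold. TYK2, the kinase bound to IFNAR1, had 2830.2, 2812 and 2704 in A2780 and 4789.7, 4785 and 4397 in A2780-ADR, without overlap and with a log2 fold change of 0.74 (95% interval 0.64 to 0.85). Per length, as reads scaled to exon length and to the reads in genes of the library (RPKM), TYK2 was the most abundant of the kinases in both lines, at 13.9 in A2780 and 23.9 in A2780-ADR. The level of JAK1 went from 2.74 to 14.2 on the same scale and that of JAK2 from 1.004 to 2.52. IFNGR2 had the highest level of the receptor chains in both lines, 21.8 and 14.7 RPKM, above IFNAR1 (5.18 and 7.30), IFNAR2 (2.53 and 3.42) and IFNGR1 (1.81 and 4.77). Exons of IFNGR2 overlap those of TMEM50B on the opposite strand, and the strand setting of the counting is not given in the sources used here, so reads of such partners cannot be fully told apart.

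Both called genes of the STAT and IRF tier were lower in A2780-ADR cells. IRF1 (ENSG00000125347, chr5:132481609-132490798, minus strand), which is induced by interferon gamma and activates antigen presentation and GBP genes, had 1305, 1274 and 1433 normalized counts in A2780 and 175, 166 and 145 in A2780-ADR. The lowest A2780 value lay far above the highest A2780-ADR value, and IRF1 fell by 3.04 on the log2 scale (SE 0.09, adjusted p = 3.3e-11 from limma). IRF9 (ENSG00000213928, chr14:24161053-24166565, plus strand), the DNA-binding subunit that joins STAT2 in the type I response, had 266, 238 and 259.7 in A2780 and 98.4, 77.1 and 93.4 in A2780-ADR, and fell by 1.502 (SE 0.13, adjusted p = 4.37e-07 from limma). IRF1 shares exon sequence with C5orf56 on the opposite strand (mean 142.6 in A2780 and 73.7 in A2780-ADR), and IRF9 with AL136295.5 on the same strand (62.8 and 30.6), so part of their reads may belong to these partners. STAT2, the partner of IRF9, had 2237, 2146 and 2126 against 1531, 1501 and 1597, a log2 fold change of -0.49 that did not reach the 2-fold threshold.

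Among the other interferon regulatory factors, IRF2, which competes with IRF1 for the same elements, had 872, 880.0 and 885 normalized counts in A2780 and 542, 524 and 502 in A2780-ADR (log2 fold change -0.75). IRF3, the constitutive factor that the RNA and DNA sensing pathways activate, had 2509.8, 2502 and 2384 against 2269, 2362 and 2098, and the log2 fold change was -0.14 (95% interval -0.26 to -0.02). It was the most abundant member of its tier per length, at 22.0 RPKM in A2780 and 20.6 in A2780-ADR. IRF7, which amplifies type I interferon, was low, with 32.6, 24.4 and 11.6 against 34.1, 39.5 and 33.7. Its adjusted p was 0.0596 from limma at a log2 fold change of 0.73, and without A2780 replicate 1 it became 0.0146 at a change of 1.03, whereas without A2780 replicate 3 it became 0.228 at a change of 0.33, so the value depends on both libraries. IRF4 and IRF8, factors of blood cells, had 3 and 0 reads over the A2780 libraries and 4 and 1 over the A2780-ADR libraries, and IRF5 had 28 and 11, so these 3 genes were not tested. The ratio of the IRF5 reads was 2.74 (95% counting interval 1.32 to 6.10), higher in A2780. Intervals of this kind were computed from summed reads and cover counting error only.

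The cytosolic RNA sensors were present in both lines and none was called. IFIH1, the sensor MDA5 of long double-stranded RNA, had 165, 208 and 160.4 normalized counts in A2780 and 111, 120.4 and 129.9 in A2780-ADR (log2 fold change -0.55, 95% interval -0.84 to -0.26). DDX58, the sensor RIG-I, had 324, 403 and 389.5 against 269.6, 277 and 303 (log2 fold change -0.39, 95% interval -0.61 to -0.16). DHX58, the regulator LGP2 of both, had 114, 101 and 108 against 148, 171 and 176 (log2 fold change 0.61, 95% interval 0.34 to 0.88). In each case the lines did not overlap and the adjusted p of limma was passed (0.00278, 0.00473 and 0.000805), but all 3 changes were under 2-fold.

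**Figure D2:**
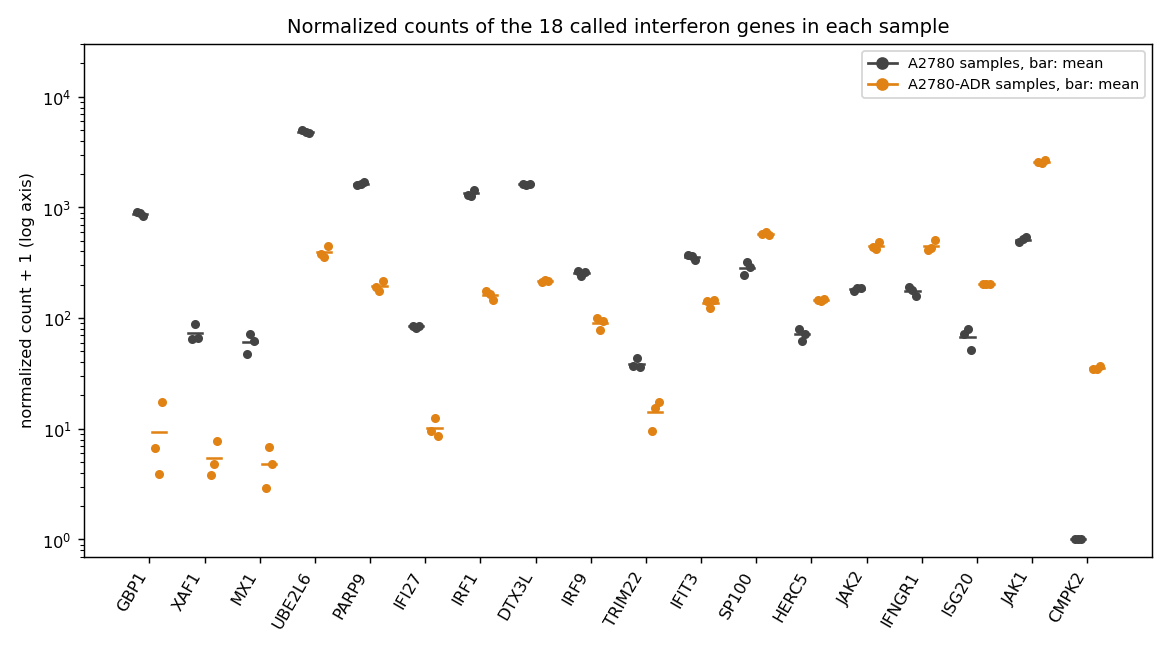
Normalized count plus 1 (log axis) of the 18 called genes in each A2780 (grey) and A2780-ADR (orange) sample, ordered by log2 fold change, with a bar at each mean. The lines do not overlap for any of the 18, which were selected by their difference, and the A2780-ADR values of GBP1 spread from 2.89 to 16.4 normalized counts.

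Both tested guanylate-binding and MX GTPases fell, and GBP1 had the largest fall of the 43 tested genes. GBP1 (ENSG00000117228, chr1:89052319-89065360, minus strand), an interferon gamma-induced GTPase that attacks intracellular pathogens, had 915, 892 and 829 normalized counts in A2780 and 5.68, 2.89 and 16.4 in A2780-ADR. No A2780 value was below 829 and no A2780-ADR value exceeded 16.4, and GBP1 fell by 6.84 (SE 0.40, adjusted p = 1.57e-08 from limma). On summed reads, 2560 against 26, the ratio was 106 (95% counting interval 72.2 to 163). MX1, a GTPase that blocks influenza and other RNA viruses, had 46.8, 70.3 and 61.2 against 1.89, 5.78 and 3.85, and fell by 3.71 (SE 0.34, adjusted p = 9.09e-07 from limma). Its paralog MX2 had 2 reads in A2780 and 1 in A2780-ADR. GBP2 had 32 and 7 reads, a ratio of 4.92 (95% counting interval 2.13 to 13.2), and was not tested. The GBP, MX, IFIT and OAS families hold similar copies, and reads that match more than 1 copy may be lost or given to the wrong gene.

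The ISG15 conjugation system was split. ISG15 itself, the ubiquitin-like modifier, had 968, 938 and 880.3 normalized counts in A2780 and 1071, 1096 and 943 in A2780-ADR, which overlap (log2 fold change 0.16, 95% interval 0.00 to 0.31, adjusted p = 0.0657 from limma). UBE2L6 (ENSG00000156587, chr11:57551656-57568284, minus strand), the E2 enzyme that passes ISG15 on to its targets, had 4998, 4826 and 4685 in A2780 and 375, 358 and 444 in A2780-ADR. This was a fall of 3.63 on the log2 scale (SE 0.08, adjusted p = 1.94e-12 from limma), and the level went from 74.6 to 6.22 RPKM. HERC5, the main E3 ligase for ISG15, was on the other side, with 79.4, 61.1 and 70.7 against 145, 143 and 147 (log2 fold change 1.04, SE 0.14, adjusted p = 2.97e-05 from limma). This call lay at the threshold: it was lost without A2780 replicate 2 (0.94) and with a pseudocount of 5 (0.998). HERC6, its neighbour and paralog, had 40.7, 65.2 and 51.7 against 107, 103 and 102 and a change of 0.997, just under the threshold, which it passed without A2780 replicate 2 (1.16). USP18, the protease that removes ISG15 and dampens IFNAR2 signalling, had 470.0, 474 and 380.0 against 248.8, 241 and 243 (log2 fold change -0.84). For USP18 the lines did not overlap, but the change was under 2-fold.

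PARP9 and DTX3L, an ADP-ribosyltransferase and a ubiquitin ligase that work as a complex and promote interferon signalling, fell by similar amounts. PARP9 (ENSG00000138496, chr3:122527924-122564577, minus strand) had 1594, 1627 and 1699 normalized counts in A2780 and 191, 176 and 217 in A2780-ADR (log2 fold change -3.07, SE 0.08, adjusted p = 1.85e-11 from limma). DTX3L (ENSG00000163840, chr3:122564238-122575203, plus strand) had 1616, 1584 and 1637 against 210.0, 221 and 215 (log2 fold change -2.90, SE 0.06, adjusted p = 3.36e-12 from limma). The genes start on opposite strands at the same place on chromosome 3, where 217 bases of their exons overlap. PARP14, an ADP-ribosyltransferase that lies 105415 bases farther on, had 3367, 3395 and 3382 against 1833, 1781 and 2099, a change of -0.83 that did not reach 2-fold.

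The IFIT proteins, which bind foreign RNA and block its translation, differed in direction within 1 gene cluster on chromosome 10. IFIT3 (ENSG00000119917, chr10:89327894-89340971, plus strand) had 374, 366 and 336 normalized counts in A2780 and 141, 123 and 145 in A2780-ADR and fell by 1.39 (SE 0.10, adjusted p = 1.56e-07 from limma). IFIT1, with which the IFIT3 protein forms a complex, had 816, 889 and 863 against 1552, 1622 and 1714 (log2 fold change 0.93, 95% interval 0.80 to 1.06). IFIT2, on the other side of IFIT3, had 156, 178 and 198 against 304, 321 and 350.3 (log2 fold change 0.87, 95% interval 0.63 to 1.12). The intervals of IFIT1 and IFIT2 lie above 0 and that of IFIT3, -1.62 to -1.16, lies below it, though neither IFIT1 nor IFIT2 passed the 2-fold threshold. IFIT5 had 768, 852 and 837 against 964, 974 and 895 (log2 fold change 0.21).

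**Figure D3:**
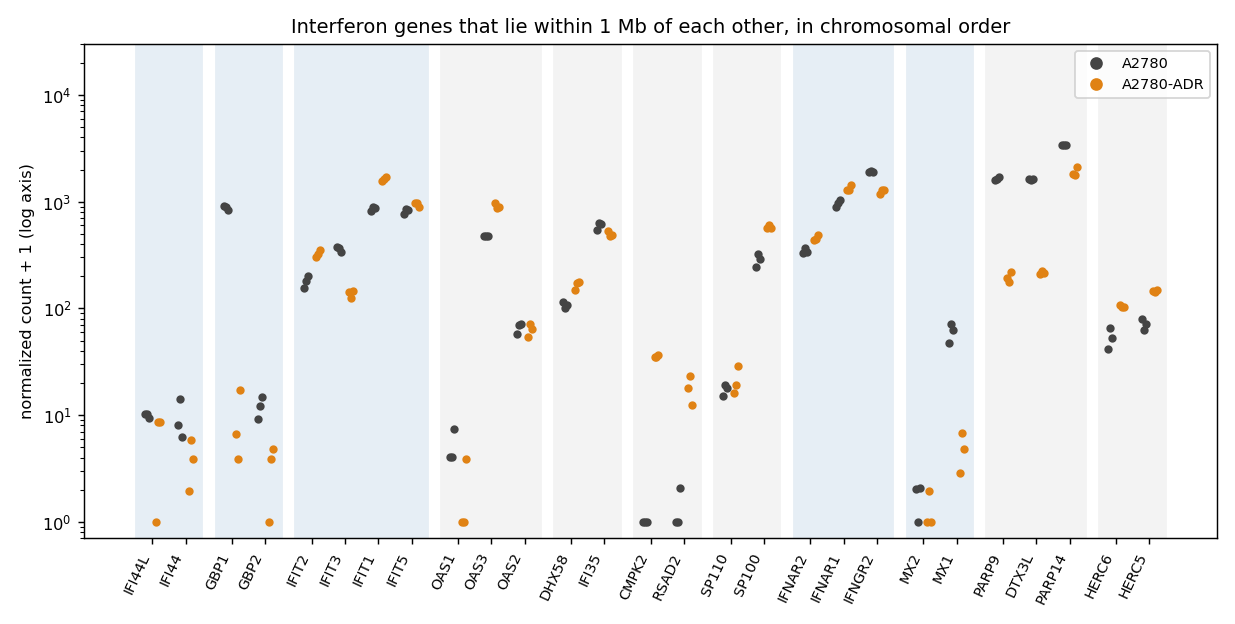
Normalized count plus 1 (log axis) in each A2780 (grey) and A2780-ADR (orange) sample of the 27 genes that lie within 1 Mb of another gene of the list, in chromosomal order and with a shaded band for each of the 11 loci. IFIT3 is lower in A2780-ADR between IFIT2 and IFIT1, which are not, while PARP9 and DTX3L fall side by side.

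CMPK2 and RSAD2, which lie head to head on chromosome 2 with 14 bases of exon overlap, were found almost only in A2780-ADR. CMPK2 (ENSG00000134326, chr2:6840570-6866635, minus strand), a mitochondrial nucleotide kinase, had 0 reads in all 3 A2780 libraries and 34.1, 33.7 and 35.6 normalized counts in A2780-ADR. The 108 reads there were at least 33.4-fold higher than a floor of 3 reads over the A2780 libraries (adjusted p = 5.11e-08 from limma). RSAD2, which encodes viperin, an enzyme that makes a chain-terminating nucleotide, had 0, 0 and 1.06 normalized counts in A2780 and 17.03, 22.2 and 11.5 in A2780-ADR. RSAD2 was under the filter, and its 53 reads against 1 gave a ratio of 49.2 (95% counting interval 8.46 to 1981).

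In the group of OAS proteins, PKR and ISG20, which act on double-stranded or viral RNA, only ISG20 of the 4 genes tested was called. This exonuclease of viral RNA had 70.2, 79.4 and 50.7 normalized counts in A2780 and 204, 202 and 202 in A2780-ADR, and rose by 1.61 (SE 0.16, adjusted p = 2.39e-06 from limma). OAS3, a synthetase of the messenger that activates RNase L, had 479, 474 and 477 against 965, 877 and 885 (log2 fold change 0.93, 95% interval 0.78 to 1.07). EIF2AK2, the kinase PKR that halts translation, had 2778, 3033 and 2981 against 3814, 3824 and 4516 (log2 fold change 0.46). OAS2, of the same family, had 55.95, 69.3 and 69.7 in A2780 and 52.97, 70.3 and 62.6 in A2780-ADR, which overlap. It was the gene whose sign depended on a library: its change was -0.07 (95% interval -0.45 to 0.31) and 0.04 without A2780-ADR replicate 1. OAS1 had 12 reads in A2780 and 3 in A2780-ADR, a ratio of 4.31 (95% counting interval 1.16 to 23.8), and OASL had 43 and 7, a ratio of 6.61 (2.95 to 17.4). The family therefore held values in each direction, with OAS3 higher in A2780-ADR in 3 of 3 samples and OASL higher in A2780 in 3 of 3.

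In the list's group of small and IFI-named induced proteins, each gene tested was higher in A2780. The group does not hold IFITM2, which rose and is given below with the other lists. XAF1, a proapoptotic partner of the inhibitor XIAP, had 64.1, 87.6 and 65.4 normalized counts in A2780 and 2.84, 3.85 and 6.74 in A2780-ADR (log2 fold change -3.79, SE 0.30, adjusted p = 2.59e-07 from limma). IFI27, a mitochondrial protein much used as a marker of interferon exposure in blood, had 84.4, 80.5 and 84.4 against 8.51, 11.6 and 7.70 (log2 fold change -3.05, SE 0.22, adjusted p = 1.07e-07 from limma). IFI6, of the same family, had 326, 397 and 359.9 against 216, 205 and 199 (log2 fold change -0.80), and IFI35 had 544, 636 and 618 against 534, 479 and 481 (-0.26). All 4 genes tested had negative changes and 2 were called. IFI44 and IFI44L were not tested: IFI44 had 25 reads in A2780 and 9 in A2780-ADR, a ratio of 2.99 (95% counting interval 1.35 to 7.28), and IFI44L had 26 and 16, a ratio of 1.75 (0.90 to 3.49).

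Of the remaining effectors, TRIM22, a ubiquitin ligase with antiviral activity, had 35.6, 42.8 and 34.8 normalized counts in A2780 and 8.51, 14.4 and 16.4 in A2780-ADR (log2 fold change -1.497, SE 0.27, adjusted p = 0.000355 from limma). SP100, a scaffold of nuclear bodies that restricts DNA viruses, had 244, 319.8 and 288 against 571, 599 and 567 (log2 fold change 1.03, SE 0.10, adjusted p = 1.5e-06 from limma), and this call was lost without A2780 replicate 1 (0.93). SP110, its paralog, had 14.2, 18.3 and 16.9 against 15.1, 18.3 and 27.9, with overlap between the lines (log2 fold change 0.26, adjusted p = 0.425 from limma). BST2, the tetherin that holds virus particles at the cell surface, was the most abundant gene of the list per length in both lines, at 272 and 229 RPKM. It had 9315, 9077 and 8586 normalized counts against 7518, 7558 and 6992, a log2 fold change of -0.29 (95% interval -0.40 to -0.18).

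After BST2, the highest levels in A2780 were those of UBE2L6 (74.6 RPKM), ISG15 (33.5), IRF3 (22.0) and IFNGR2 (21.8), and in A2780-ADR those of ISG15 (38.3), TYK2 (23.9), IRF3 (20.6) and IFNGR2 (14.7). UBE2L6 was thus next to BST2 in A2780 and at 6.22 RPKM in A2780-ADR, and JAK1 moved up to 14.2. GBP1 went from 5.97 RPKM, close to the 6.29 of IFIT1, to 0.0581.

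**Figure D4:**
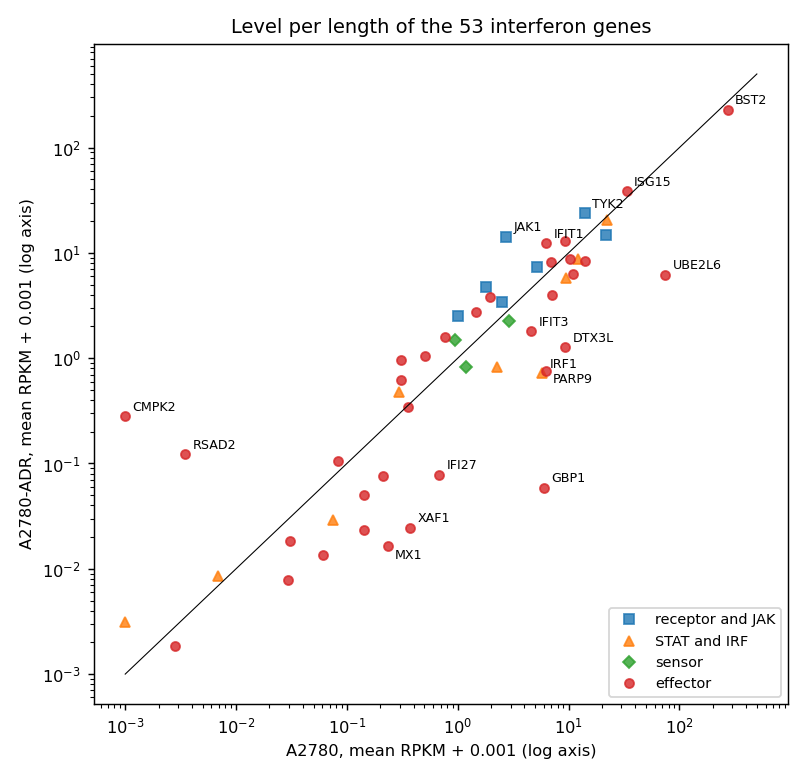
Mean RPKM plus 0.001 of each of the 53 genes in A2780 (x axis) and A2780-ADR (y axis), both on log axes, with a symbol for each tier and a line at equal levels. BST2 stands at the top right near the line at 272 and 229 RPKM, GBP1 lies farthest below it at 5.97 and 0.0581, and CMPK2 and RSAD2 lie above it at the left.

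Other genes of the pathway were taken from lists of 122 genes, of which 80 were tested, 13 rose and 22 fell, 43.8% of those tested against 27.6% of all tested genes. Of these 35 called genes, 10 that fell and 3 that rose passed the filter on low values only through the line in which they were higher, so they had to differ, and the share is a description only. Among the 22 interferon ligands, 17 had 0 reads in all samples and only IFNG, interferon gamma, passed the filter. IFNG had 42.7, 54.0 and 51.7 normalized counts in A2780 and 0 in each A2780-ADR sample, at least 51.7-fold lower on 144 reads against a floor of 3 reads over the A2780-ADR libraries (adjusted p = 1.48e-08 from limma). RNA of this cytokine was therefore detected in the line in which IRF1 and GBP1 were higher, and its part in their levels was not tested. Of 17 tested sensing adaptors and kinases, 3 rose and 2 fell (29.4%). TMEM173, the adaptor STING of the DNA-sensing pathway, had 2 reads in A2780 and 453 in A2780-ADR, a ratio of 210.4 (95% counting interval 57.9 to 1743). TANK, an adaptor of the kinase TBK1, had 507, 505 and 487 normalized counts against 3881, 4036 and 4307 (log2 fold change 3.02, SE 0.06, adjusted p = 8.27e-13 from limma), and MYD88, the adaptor of most Toll-like receptors, had a change of 1.199. TLR3, the endosomal receptor of double-stranded RNA, had 410.0, 401 and 393 against 114, 91.5 and 147 (log2 fold change -1.79), and TRAF3, of the same list, fell by 1.58.

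Of 18 tested further receptors, STATs and brakes, 2 rose and 4 fell (33.3%). NLRC5, the activator of the genes of MHC class I, had 2353, 2241 and 2297 normalized counts in A2780 and 7.57, 17.3 and 14.4 in A2780-ADR (log2 fold change -7.42, SE 0.22, adjusted p = 4.19e-11 from limma). NMI, a partner of STAT proteins, had 361, 359 and 397 against 8.51, 10.6 and 7.70 (log2 fold change -5.24), and SOCS3, an inhibitor of JAK kinases, fell by 1.24. IFNLR1, the specific chain of the interferon lambda receptor, rose by 2.06 on the log2 scale, and PTPN6, the phosphatase SHP-1, by 2.01.

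Among 44 tested further interferon-stimulated genes, 8 rose and 15 fell (52.3%). PSMB9, a subunit of the immunoproteasome, had 1247, 1264 and 1185 normalized counts in A2780 and 2.84, 1.93 and 8.66 in A2780-ADR (log2 fold change -8.01, SE 0.34, adjusted p = 8.51e-10 from limma). APOL6, an apolipoprotein L family member, went from a mean of 1078 to 5.09. GBP4 and GBP5, relatives of GBP1, had 439 and 376 reads in A2780 and 0 in A2780-ADR, at least 158-fold and 135-fold lower against the floor of 3 reads over the A2780-ADR libraries. TAP1, the peptide transporter, and B2M, the light chain of MHC class I, were singled out after their values were seen. TAP1 had 3125, 3089 and 2958 against 134, 124 and 114, and B2M had 18763, 20148 and 21594 against 4657, 5246 and 5310.5. PSME1, PSMB8, PSMB10 and TAP2, antigen processing genes also picked out after their values were seen, fell too, while PSME2 had a change of -0.20. The largest rises were those of TRIM38 (log2 fold change 3.32), a ubiquitin ligase that restrains innate signalling, the chemokine CCL5 (2.32), CD274 (1.83), the checkpoint ligand PD-L1, and IFITM2 (1.68), which blocks virus entry. PSMB9 and TAP1 overlap on opposite strands on chromosome 6.

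**Figure D5:**
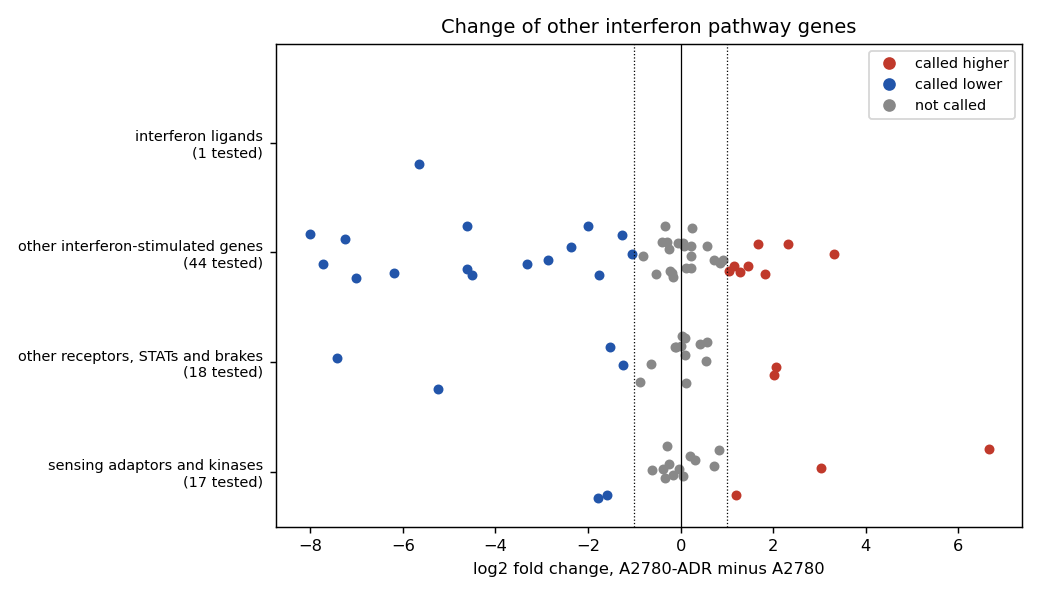
Log2 fold change (x axis, A2780-ADR minus A2780) of the 80 tested genes of the other interferon pathway lists, 1 point per gene, spread vertically at random within a list, with dotted lines at a 2-fold change. The single tested ligand, IFNG, lies at -5.65, and the further interferon-stimulated genes range from -8.01 to 3.32.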

How the data were processed

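RNA was isolated with a column kit and libraries were made with the TruSeq Stranded mRNA kit. DESeq was used by the authors to normalize the counts of each gene, and the table was deposited as signal in normalized counts. STAR, HTSeq and GRCh38 are named in the submitters' processing notes, while the sources used here give no versions, annotation release or strand setting. Values above 0 were multiples of 1 read (100% within 0.01), so reads were recovered. Gene names came from GENCODE 29 (57447 identifiers matched), and 0 columns had no sample.

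The 17005 genes averaging at least 10 were tested on log2(normalized count + 1) with limma 3.58.1 in R 4.3.3, with variances that follow the mean, no covariates and Benjamini-Hochberg adjustment over all of them. This scale understates folds of low genes. With 3 samples per line, the smallest two-sided p of an exact permutation test is 0.1. RPKM used the union of exons. Alternatives were pseudocounts of 0.5 and 5, no filter, a mean of at least 50, rescaling by TMM or to equal totals, limma's robust option, edgeR 4.0.16 and DESeq2 1.42.0 on the recovered reads, fold thresholds of 1.5 or none, the replicate number as a block, and each sample left out. Chi-square per degree of freedom between libraries of a line was 2.14 to 7.8, above sampling noise. The fit was tested on simulated data.

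Genes and lists were chosen with earlier results of these data known. All 53 genes are accounted for. Every sample's value is given for called genes, for tested genes of the first 3 tiers and for tested effectors with a log2 change over 0.58 or in a subgroup with a called gene. From each other list, up to 4 called genes per direction with the largest changes are named. 1 called gene of these lists is not reported here.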

Additional observations from a re-analysis of the deposited data

How the results depend on the processing

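The 18 calls among the 43 tested genes (7 higher, 11 lower) were the same 18 with edgeR, with DESeq2, with limma's robust option and with no filter on low values. Without a fold threshold 39 genes were called, 17 higher and 22 lower, and 64 genes of the other pathway lists, 27 higher and 37 lower. At 1.5-fold, 29 were called, 13 of them higher. A mean of at least 50 left 36 genes to test and 7 lower. Leaving out each sample in turn gave 18 to 19 calls, 7 to 8 higher and 11 lower, and 34 to 35 in the other lists, of which 12 to 13 were higher. OAS2 changed sign, with a range of -0.172 to 0.037 over the samples left out. HERC6 also passed the threshold with a pseudocount of 0.5 (1.004), with TMM (1.01), with equal totals (1.03) and without A2780-ADR replicate 2 (1.003) or 3 (1.01). The median change of all genes stayed between -0.011 and 0.029 under every setting run.

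With no filter, OAS1, OASL and GBP2 were called lower (adjusted p from limma 0.049, 0.00375 and 0.0138) and RSAD2 higher (6.4e-05) among the 10 genes that were otherwise not tested, and the other 6 were not called.

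Equal replicate numbers did not pair samples of the lines, as deviations of equally numbered samples correlated at 0.004, -0.016 and 0.077. With the replicate number as a block the calls were 18 (7 higher, 11 lower) and 35 in the other lists, and no gene named here changed its call. Depth limits the genes with few reads: for IRF4, IRF8 and MX2 no difference was detectable.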

Other observations

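Genes beside the called interferon genes on the chromosome were described with the nearest tested gene on each side. Of 17 such neighbours of genes that fell, leaving out genes of the list itself, 7 fell, 2 rose and 8 were not called, and of 13 neighbours of genes that rose, 5 rose, 1 fell and 7 were not called. Among all tested genes 14.4% were called lower and 13.2% higher. The 7 that fell include AL136295.5, which shares exon sequence with IRF9 on the same strand, and GBP3, a gene of the other pathway lists. No test was made of these counts, and neighbours were named after their values were seen.

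UBE2L6 lies between SMTNL1 and SERPING1 on chromosome 11, and both neighbours fell with it. SERPING1, the C1 inhibitor of complement, went from a mean of 4945 to 580.3 normalized counts, a log2 fold change of -3.09 (limma, adjusted p = 1.34e-12), close in size to the -3.63 of UBE2L6. SMTNL1 went from 61.5 to 2.88 (log2 fold change -4.20). RNF144A, a ubiquitin ligase 50757 bases from CMPK2, went from 2.43 to 890.5 (log2 fold change 8.33, adjusted p = 1.15e-08 from limma), in the same direction as CMPK2. TNFAIP3, an inhibitor of NF-kappaB and the next tested gene after IFNGR1, went from 12.4 to 80.3 (log2 fold change 2.64), and SP140L, beside SP100, from 195 to 649.6 (1.73).

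AC116366.1 beside IRF1 (log2 fold change -1.34), REC8 and AL136295.5 beside IRF9 (-1.31 and -1.03) and ALOX15P1 beside XAF1 (-1.34) also fell with their genes. GBP3 beside GBP1 fell too (-2.36), while PEX7 beside IFNGR1 (1.43) and COLEC11, 3195926 bases from CMPK2 (2.16), rose with theirs. The remaining neighbours outside the list differed in direction or were not called. BACE2, the nearest tested gene before MX1, went from 0.339 to 137.5 (log2 fold change 6.78) while MX1 fell. IFI27 lies between its paralogs IFI27L1, at 488 and 258 (log2 fold change -0.92), and IFI27L2, at 93.3 and 288 (1.62), so the 2 paralogs differed in direction. RAVER2, which overlaps JAK1 by 4 bases, had means of 1449 and 1432 (log2 fold change -0.02), and TRIM5, which overlaps TRIM22, had a change of 0.725.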
